A study of Rattus norvegicus with 18 samples.

Results

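PGC-1α (peroxisome proliferator-activated receptor gamma coactivator 1-alpha), encoded by Ppargc1a, and 6 genes through which skeletal muscle takes up and burns fuel were followed in rat gastrocnemius. The genes were listed by Ensembl identifier, and an identifier was to be kept only where the chromosome in the deposited table was the one given with its name. The chromosome rule removed no gene. Of the 8 listed genes, 7 were analysed, out of 32883 gene identifiers in the table and 14646 that passed the filter on low counts. All 7 passed that filter. The values of 1 of the 8 listed genes are not analysed here.

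Muscle switches between glucose and fatty acids according to feeding, exercise and hormones. PGC-1α is a coactivator that binds transcription factors rather than DNA and is known for driving genes of mitochondria and oxidative metabolism in muscle. Glucose enters through the insulin-responsive transporter GLUT4 and is trapped by hexokinase 2, and pyruvate dehydrogenase kinase 4 restrains its oxidation as pyruvate. Fatty acids are released from circulating lipoproteins by lipoprotein lipase, which angiopoietin-like 4 inhibits.

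RNA sequencing counts were obtained from 3 groups of 6 male Brown Norway rats each. Young rats fed AL (ad libitum) were 6 months old. The other 2 groups were 28 months old, 1 fed AL and 1 under CR (caloric restriction). All were assigned to a diet at 2 months of age, and CR rats received 55% of the AL intake as a ration given once a day. No restricted young group was used here, so age and diet were compared along 3 contrasts: aged against young under AL, aged CR against young AL, and aged CR against aged AL. The tissue is whole muscle, in which fewer cells of a type and less RNA per cell cannot be told apart.

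Total counts ranged from 17335401 to 27432767 per library. Rat 8 (aged, AL) and library 8828 (aged, CR) stood apart on the first principal component of log2 CPM, at 108.9 and 75.5. The other libraries lay from -45.8 (rat 3, young) to 8.25 (rat 7, aged, AL). Each result below is also given without rat 8 and library 8828 where its call or sign changes or its value moves by over 1.5 times. Mitochondrially encoded genes took 4.24 to 6.12% of counts in young rats, 3.10 to 6.75% in aged rats fed AL and 2.49 to 12.4% in aged CR rats. 3 of the 6 aged CR libraries could be placed in their group but not with a numbered rat, and are called 8826, 8827 and 8828 after their columns. The sample number and library number in these column names belong to different rats of the group in the labels, and 1 rat number stands in 2 column names, so that the column names alone do not show 6 distinct aged CR rats. Each group has its own block of library numbers, so handling and group cannot be told apart if the blocks were handled separately.

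The promoters of the 3 genes that were called different between aged and young rats, Ppargc1a, Hk2 and Ogdh, are shown because all 3 were lower in aged rats fed AL. They are the 250 bases before the RefSeq gene start, 5′ to 3′ on the gene's strand, in assembly GRCr8. Capitals mark matches, on either strand, to the cyclic AMP element TGACGTCA, the E-box CACGTG, the nuclear receptor half-site AGGTCA, its direct repeat with 1 base between, the extended site TCAAGGTCA and the FoxO site TGTTTAC. The half-site letters are also part of the repeat and of the extended site.
Ppargc1a, chr14:63634058-63634307, plus strand: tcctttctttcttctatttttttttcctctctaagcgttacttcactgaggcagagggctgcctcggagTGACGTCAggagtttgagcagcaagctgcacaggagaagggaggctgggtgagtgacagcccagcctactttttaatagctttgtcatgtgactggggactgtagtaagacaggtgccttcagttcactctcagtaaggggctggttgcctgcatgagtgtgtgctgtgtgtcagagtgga
Hk2, chr4:116841276-116841525, minus strand: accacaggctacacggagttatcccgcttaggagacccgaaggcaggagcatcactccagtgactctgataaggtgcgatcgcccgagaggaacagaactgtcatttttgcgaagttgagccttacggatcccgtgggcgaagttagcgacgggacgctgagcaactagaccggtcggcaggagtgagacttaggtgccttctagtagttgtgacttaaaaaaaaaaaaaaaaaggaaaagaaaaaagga
Ogdh, chr14:85363781-85364030, plus strand: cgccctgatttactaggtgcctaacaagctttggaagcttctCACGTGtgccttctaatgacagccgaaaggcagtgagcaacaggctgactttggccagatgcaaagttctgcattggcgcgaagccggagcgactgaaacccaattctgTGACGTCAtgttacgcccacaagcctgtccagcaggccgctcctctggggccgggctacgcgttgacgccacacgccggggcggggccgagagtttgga
The cyclic AMP element began 181 bases before the start of Ppargc1a and 99 bases before that of Ogdh, and Hk2 carried no capitals in its window. Promoter sequences were matched for 6 of the 7 genes, without Slc2a4, and were searched from 250 bases before to 50 bases after the start. TGACGTCA was in 2 of these 6 and in 1.91% of 27457 rat promoters of the same length. CACGTG was in Ogdh alone, 208 bases before its start, and in 6.65% of all promoters. AGGTCA was in Ucp3 alone, at 155 and 50 bases before its start, and in 15.7% of all. Neither the direct repeat (0.0583% of all promoters), TCAAGGTCA (0.412%) nor TGTTTAC (3.76%) was matched in any of the 6. The looser E-box CANNTG, which includes CACGTG and is not capitalised, was in 6 of 6 and in 71.6% of all. These are letter matches, not measured binding, and no match means only that the letters are not in the window.

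**Figure D1:**
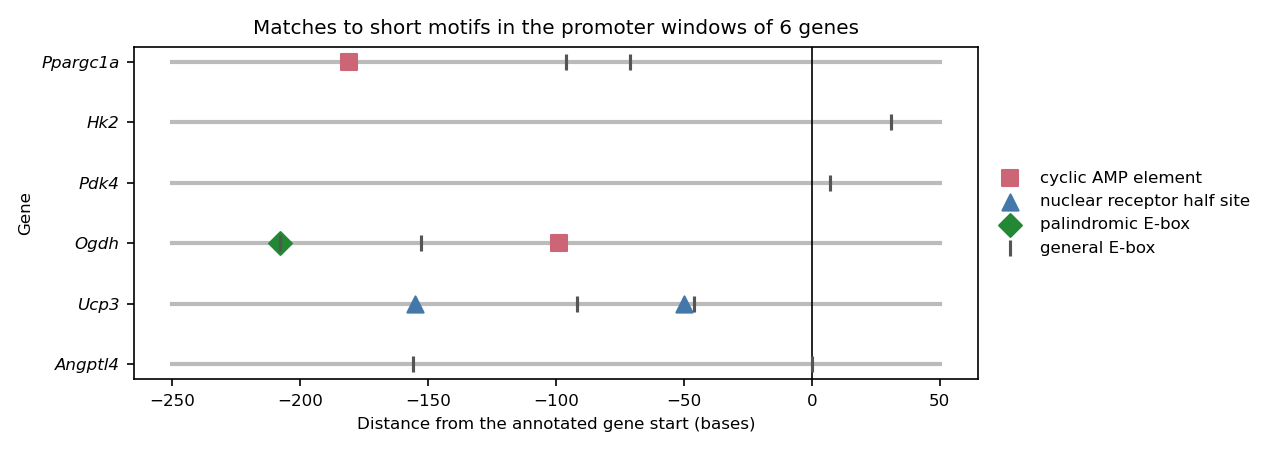
Positions of the motif matches in the RefSeq promoters of 6 genes, on an axis of bases from the gene start; each marker is a match and its shape and colour give the motif. The cyclic AMP element stands at 181 bases before the start of Ppargc1a and 99 bases before that of Ogdh, and no other gene shown has it.

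Levels are given as CPM, counts scaled to a common library total with TMM factors, which adjust totals for differences in library composition. Between genes they were compared only per kilobase of annotated gene length, as mean CPM per kilobase ± SD (n = 6). In young rats fed AL the order was Slc2a4 (339 ± 47.1), Pdk4 (207 ± 69.0), Ogdh (146 ± 33.8), Ucp3 (56.7 ± 15.3), Hk2 (42.6 ± 6.50), Ppargc1a (24.8 ± 16.2) and Angptl4 (3.89 ± 2.69). The ranges of mean ± SD overlapped between the neighbours Pdk4 and Ogdh, Ucp3 and Hk2, and Hk2 and Ppargc1a. In aged CR rats Pdk4 (325 ± 84.5) stood above Slc2a4 (314 ± 47.6), a difference smaller than either SD, and the order turned without library 8828, to 329 ± 94.0 for Pdk4 and 331 ± 25.6 for Slc2a4 (n = 5). In the same group Hk2 (34.4 ± 5.46) stood above Ucp3 (32.9 ± 9.72), also by less than either SD. In aged rats fed AL, Angptl4 (11.9 ± 17.6) stood above Ppargc1a (8.34 ± 2.61), with an SD larger than its mean, and without rat 8 it stood below, at 4.74 ± 1.42 against 9.14 ± 1.94 (n = 5).

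**Figure D2:**
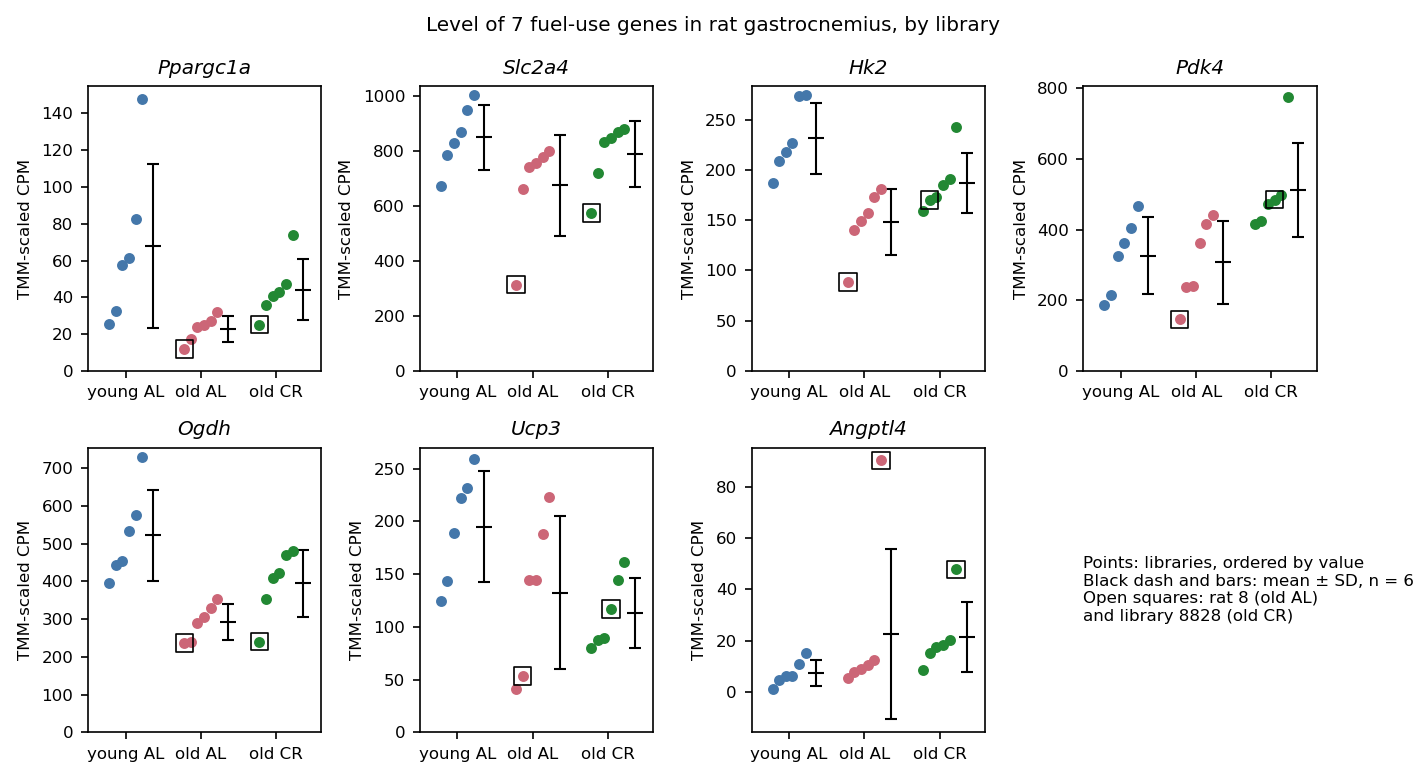
TMM-scaled CPM of each gene (vertical axes, linear, a different range in each panel) in the 6 libraries of each group (points ordered by value), with mean ± SD beside them. Open squares mark rat 8 and library 8828; the Hk2 and Ogdh points of young and aged rats fed AL do not overlap, and the Angptl4 bar of aged rats fed AL reaches below 0 because 1 library at 90.2 CPM sets the SD.

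The first contrast asks what differs with age under free feeding. Of the 7 genes, 3 were called, all lower in aged rats fed AL: Ppargc1a, Hk2 and Ogdh. A gene was called at a Benjamini-Hochberg adjusted p of at most 0.05 over all genes and a fold change of at least 1.5 (edgeR quasi-likelihood test). Among all 14646 genes tested, 3.39% were called and 1.52% were called lower. The median log2 difference was -0.56 over the 7 genes and 0.01 over all genes. The list was made with earlier results of these data known, and the study had already reported Ppargc1a and Ogdh as lower in this contrast. The shares of all genes are therefore given as description and not as a test of the list. The levels did not overlap between these groups for 2 of the 7, Hk2 and Ogdh, against 2.40% of all genes tested. This depends on the scaling, since Hk2 levels overlapped with library totals in place of TMM factors.

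Ppargc1a (ENSRNOG00000004473, Rnor_6.0 chr14:63095720-63187009, plus strand) encodes the coactivator itself. In young rats fed AL its level had a lowest value of 25.6, a median of 59.4 and a highest value of 148.1 CPM, in aged rats fed AL 12.0, 24.3 and 32.0 CPM, and in aged CR rats 25.1, 41.7 and 74.2 CPM. Rat 4 was the highest young rat and rat 2 the lowest, and 4 of the 6 aged rats fed AL lay below every young rat, and the groups overlapped only because rat 2 lay under the highest 2 aged rats fed AL. The mean was 67.9 ± 44.4 CPM (SD, n = 6) in the young group and 22.8 ± 7.15 CPM (SD, n = 6) in aged rats fed AL, 2.98-fold lower (log2 -1.57, SE 0.36, 95% interval -2.33 to -0.82, adjusted p = 0.0201). It fell in the fit without rat 8 and library 8828 too (log2 -1.44, adjusted p = 0.0185). Without rat 4, the highest young rat, the log2 difference was -1.19, the smallest when any library was left out. When only these groups entered the edgeR fit the adjusted p was 0.0511 and the gene was not called. The study's own quantitative PCR, on a limited number of samples, did not find Ppargc1a significantly lower in aged than young rats fed AL. The study reports it as higher there in aged CR than in aged rats fed AL.

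In aged CR rats the Ppargc1a mean was 44.2 ± 16.5 CPM (SD, n = 6), between those of the AL groups. 5 of the 6 aged CR libraries lay above every aged rat fed AL, and library 8828 was the exception. The fitted fold was 1.94 over aged rats fed AL (log2 0.95, SE 0.36, 95% interval 0.21 to 1.70), with an unadjusted p of 0.0151 and an adjusted p of 0.189 in edgeR, so the gene was not called there. DESeq2 on only these groups called it (adjusted p = 0.0214). Against young rats the log2 difference was -0.62 (SE 0.35, 95% interval -1.36 to 0.12, adjusted p = 0.348), and -0.23 without rat 4 (adjusted p = 0.726). Only 1 aged CR library, 8827, lay above the young mean.

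Glucose uptake and trapping were represented by Slc2a4 and Hk2. Slc2a4 (ENSRNOG00000017226, chr10:56552983-56558487, minus strand) encodes GLUT4, the insulin-responsive glucose transporter. Its lowest, median and highest levels were 670.0, 848 and 1000.3 CPM in young rats, 314, 749 and 797 CPM in aged rats fed AL and 573, 839 and 880 CPM in aged CR rats. Rat 8 held the lowest value, far under the next aged rat fed AL at 659 CPM. Library 8828 was the lowest aged CR library, and all 3 groups overlapped. In edgeR neither aged group was called against young rats, with log2 differences of -0.33 (95% interval -0.73 to 0.06, adjusted p = 0.305) under AL and -0.11 (95% interval -0.50 to 0.28, adjusted p = 0.793) under CR, nor were the aged groups against each other (log2 0.22, 95% interval -0.17 to 0.61, adjusted p = 0.621). Without rat 8 and library 8828 the log2 difference between aged and young rats fed AL was -0.18, and that between aged CR and young rats was -0.03. As single libraries were left out, the latter ranged from -0.17 (rat 4) to -0.03 (library 8828), with -0.06 without rat 3. Leaving out rat 8 alone brought the difference between the aged groups to 0.083.

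Hk2 (ENSRNOG00000006116, chr4:113559427-113610243, minus strand) encodes hexokinase 2, the muscle enzyme that phosphorylates glucose on entry. Its lowest, median and highest levels were 187, 222 and 274 CPM in young rats, 88.3, 153 and 181 CPM in aged rats fed AL and 159, 179 and 243 CPM in aged CR rats. Every aged rat fed AL lay below every young rat, while aged CR rats overlapped both AL groups. With library totals in place of TMM factors, rat 7 (aged, AL, 196 CPM) lay above rat 4 (young, 195 CPM). The mean was 231 ± 35.3 CPM (SD, n = 6) in the young group and 148 ± 32.9 CPM (SD, n = 6) in aged rats fed AL, 1.56-fold lower (log2 -0.64, SE 0.16, 95% interval -0.97 to -0.32, adjusted p = 0.0263). The fold lies close to the threshold of 1.5, and the log2 difference was -0.53 without rat 8 and library 8828 (adjusted p = 0.0156), under that fold. Leaving out rat 1, rat 3, rat 8 or rat 9 alone also ended the call.

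Hk2 in aged CR rats averaged 187 ± 29.7 CPM (SD, n = 6). All 6 libraries lay above the mean of aged rats fed AL, 3 of them above every rat of that group. Scaled by library totals alone, rat 14 (154 CPM) and library 8826 (146 CPM) lay under that mean (157 CPM). Only library 8827 (208 CPM) then lay above every aged rat fed AL. Its log2 difference was 0.33 from aged rats fed AL (SE 0.16, 95% interval 0.01 to 0.66, adjusted p = 0.312) and -0.31 from young rats (SE 0.16, 95% interval -0.63 to 0.02, adjusted p = 0.282). The difference from aged rats fed AL was 0.19 with library totals as the only scaling. The gene was called in neither contrast in edgeR.

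Oxidation was represented by Pdk4, which restrains it for glucose, and Ogdh. Pdk4 (ENSRNOG00000009565, chr4:30546664-30556814, minus strand) encodes pyruvate dehydrogenase kinase 4, which inactivates the pyruvate dehydrogenase complex and is induced by fasting. Its lowest, median and highest levels were 185, 343 and 466 CPM in young rats, 146, 301 and 442 CPM in aged rats fed AL and 416, 479 and 775 CPM in aged CR rats. The AL groups covered much the same range, and 4 of the 6 aged CR libraries lay above every rat of either AL group. Library 8827 was the highest, with the next aged CR library at 498 CPM.

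Between aged and young rats fed AL the Pdk4 log2 difference was -0.09 (SE 0.26, 95% interval -0.64 to 0.47, adjusted p = 0.884). Its sign turned to 0.06 without rat 8, to 0.047 without rat 6 and to 0.010 with library totals as the only scaling. In aged CR rats the mean was 512 ± 133 CPM (SD, n = 6), against 307 ± 117 CPM (SD, n = 6) in aged and 326 ± 108 CPM (SD, n = 6) in the young AL group. The log2 differences of aged CR rats were 0.74 from aged rats fed AL (SE 0.27, 95% interval 0.18 to 1.29, adjusted p = 0.171) and 0.65 from young rats (SE 0.27, 95% interval 0.09 to 1.21, adjusted p = 0.189), and neither was called in edgeR. DESeq2 on only the groups compared called the latter (adjusted p = 0.0413). The contrasts share the aged CR libraries and are not separate evidence.

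Ogdh (ENSRNOG00000005130, chr14:86414949-86613327, plus strand) encodes the E1 subunit of the oxoglutarate dehydrogenase complex, an enzyme of the tricarboxylic acid cycle. Its annotated span overlaps 3 other genes, 2 of them on the opposite strand, and counting used no strand option, so reads from antisense transcripts there could not be told apart. Its lowest, median and highest levels were 395, 494 and 729.9 CPM in young rats, 237, 298 and 353 CPM in aged rats fed AL and 240.1, 415 and 479 CPM in aged CR rats. Every aged rat fed AL lay below every young rat, and library 8828 was the lowest aged CR library.

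The Ogdh mean was 522 ± 121 CPM (SD, n = 6) in the young group and 293 ± 47.1 CPM (SD, n = 6) in aged rats fed AL, 1.78-fold lower (log2 -0.84, SE 0.18, 95% interval -1.21 to -0.47, adjusted p = 0.0130). It was called whichever single library was left out, with adjusted p from 0.00537 to 0.0324 and log2 differences from -0.91 to -0.71. The study's own quantitative PCR, on a limited number of samples, did not find Ogdh lower in aged rats fed AL. Its level there was higher than in young rats, not significantly, and the study reports it as higher in aged CR than in aged rats fed AL. By RNA sequencing, aged CR rats averaged 395 ± 88.8 CPM (SD, n = 6) of Ogdh. Their log2 difference was 0.43 from aged rats fed AL (SE 0.18, 95% interval 0.07 to 0.80, adjusted p = 0.234) and -0.40 from young rats (SE 0.18, 95% interval -0.77 to -0.03, adjusted p = 0.220), and neither was called in edgeR. 4 of the 6 aged CR libraries lay above every aged rat fed AL. Without the 3 aged CR libraries that had over 10% of counts on mitochondrially encoded genes, the log2 difference was 0.17 between the aged groups and -0.64 between aged CR and young rats, and the part of that share in the result was not tested.

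Fatty acid handling was represented by Ucp3 and Angptl4. Ucp3 (ENSRNOG00000017716, chr1:165482155-165496206, plus strand) encodes uncoupling protein 3 of the inner mitochondrial membrane, which is abundant in skeletal muscle and rises with fatty acid supply. Its lowest, median and highest levels were 124, 206 and 259 CPM in young rats, 40.8, 144 and 223 CPM in aged rats fed AL and 79.7, 103 and 161 CPM in aged CR rats. Aged rats fed AL spread from rat 7, the lowest of all, to rat 11, inside the range of the young rats, whereas 4 of the 6 aged CR libraries lay below every young rat.

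In edgeR none of the Ucp3 comparisons was called, while DESeq2 on only the groups compared called Ucp3 lower in aged CR than in young rats (adjusted p = 0.00821). The log2 difference from young rats was -0.56 in aged rats fed AL (SE 0.34, 95% interval -1.26 to 0.14, adjusted p = 0.337) and -0.79 in aged CR rats (SE 0.34, 95% interval -1.49 to -0.08, adjusted p = 0.209). Between the aged groups it was -0.23 (SE 0.33, 95% interval -0.93 to 0.48, adjusted p = 0.803). That value ranged from -0.41 without rat 7 to -0.01 without rat 11, and was -0.40 without rat 8 and library 8828 and -0.49 without the aged CR libraries over 10% mitochondrial. Ucp3 and Pdk4, both known to rise when fatty acids are burned, thus had log2 differences of opposite sign between aged CR and young rats.

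Angptl4 (ENSRNOG00000007545, chr7:18627808-18634079, minus strand) encodes angiopoietin-like 4, a secreted inhibitor of lipoprotein lipase that fat, liver and muscle produce on fasting. It had 17 to 362 counts per library in young rats. Its lowest, median and highest levels were 1.02, 6.04 and 15.3 CPM in young rats, 5.44, 9.64 and 90.2 CPM in aged rats fed AL and 8.54, 18.01 and 47.7 CPM in aged CR rats. The highest value in each aged group came from a library that stood apart, rat 8 and library 8828, and without them the highest were 12.4 and 20.2 CPM.

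Aged rats fed AL averaged 22.5 ± 33.3 CPM (SD, n = 6) of Angptl4 with rat 8 and 8.95 ± 2.68 CPM (SD, n = 5) without it, against 7.34 ± 5.07 CPM (SD, n = 6) in young rats. The log2 difference was 1.61 (SE 0.68, 95% interval 0.20 to 3.03, adjusted p = 0.167) with all libraries and 0.28 (adjusted p = 0.729) without rat 8 and library 8828. Aged CR rats averaged 21.3 ± 13.6 CPM (SD, n = 6), with 6 of 6 above the young mean and 4 of 6 above every young rat. Their log2 difference from young rats was 1.53 (SE 0.67, 95% interval 0.12 to 2.94, adjusted p = 0.223) and 1.12 without those libraries (adjusted p = 0.122). Against aged rats fed AL it was -0.08 (95% interval -1.45 to 1.28) and turned to 0.84 without them. Angptl4 was called in no contrast in edgeR.

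**Figure D3:**
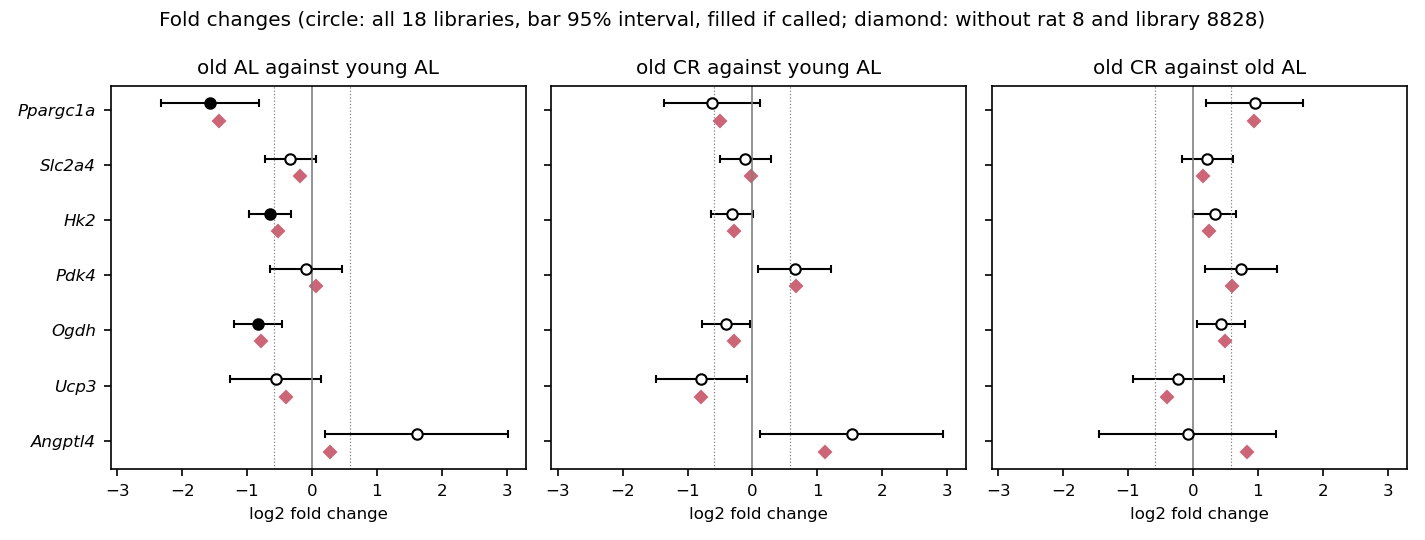
Log2 difference of each gene in the 3 contrasts (horizontal axes), as circles with 95% intervals from all 18 libraries, filled where called, and as diamonds without rat 8 and library 8828; dotted lines stand at 1.5-fold. The intervals of Ppargc1a, Hk2 and Ogdh lie below 0 in aged against young rats fed AL, and the Angptl4 point of that contrast moves from 1.61 to 0.28 when the 2 libraries are left out.

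In both contrasts of aged CR rats, edgeR called 0 of the 7 genes. Against young rats, 1.98% of all genes tested were called, 4 of the 7 had an unadjusted p under 0.05 (Pdk4, Ucp3, Ogdh and Angptl4) as had 19.3% of all genes, and the median log2 difference was -0.31 over the 7 and 0.00 over all. Against aged rats fed AL, 1.38% of all genes were called, 4 of the 7 had an unadjusted p under 0.05 (Ppargc1a, Pdk4, Hk2 and Ogdh) as had 15.3% of all genes, and the median was 0.33 over the 7 and -0.02 over all. Groups did not overlap for 0 of the 7 in either contrast, against 3.26% of all genes for aged CR against young rats and 2.06% for aged CR against aged AL. DESeq2 on all libraries also called 0 of the 7 in each, where it called 4.16% of all genes with an adjusted p against young rats and 2.90% against aged rats fed AL. DESeq2 on only the groups compared called 2 of the 7 against young rats (Pdk4 and Ucp3), where it called 5.69% of all such genes, and 1 of the 7 against aged rats fed AL (Ppargc1a), where it called 2.77%. In the latter contrast that fit gave Angptl4 no p, so Angptl4 could not be called there.

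The means of Ppargc1a, Hk2, Ogdh and Slc2a4 in aged CR rats lay between those of the AL groups, Pdk4 lay above both and Ucp3 below both. Angptl4 lay between them with all libraries and above both without rat 8 and library 8828, at 15.96 ± 4.54 CPM (SD, n = 5). Since aged CR rats are in both contrasts and aged rats fed AL share the young controls with them, this order is a description of 3 sets of means and carries no test of its own.

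Libraries of the same group differed to an extent that depended on the gene. The biological coefficient of variation, the spread between libraries of a group beyond counting error as edgeR fitted it, was 20.1% for Hk2, 22.3% for Ogdh and 23.5% for Slc2a4, near the median of 23.6% over all genes. It was 32.3% for Pdk4, 40.2% for Ucp3, 42.0% for Ppargc1a and 76.2% for Angptl4, which placed the latter at the 96.5th percentile of genes tested. The genes with the larger spread had the wider intervals above. Within the groups the same libraries recurred at the ends. Library 8827 was the highest aged CR library for 5 of the 7 genes, and for 17.4% of all genes tested. Rat 8 was the lowest aged rat fed AL for 5 of the 7, and for 31.8% of all genes, and was the highest for Angptl4. Both counts depend on the scaling and were 4 of the 7 with library totals in place of TMM factors. Library 8827 had 10.4% of counts on mitochondrially encoded genes, and the part of that share in its levels was not tested.

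**Figure D4:**
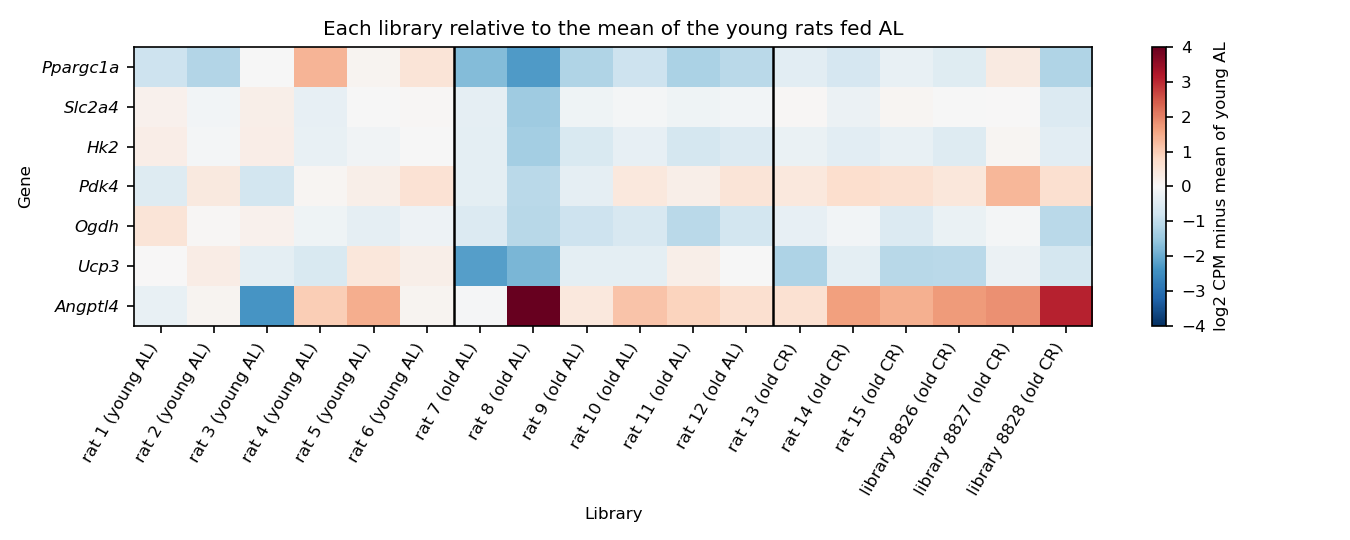
Log2 CPM of each gene (rows) in each of the 18 libraries (columns) minus the mean log2 CPM of the 6 young rats fed AL; red is above and blue below that mean, and black lines part the groups. Ppargc1a is below the young mean in all 6 aged rats fed AL, Pdk4 is above it in all 6 aged CR libraries, and Angptl4 is highest in rat 8 and library 8828.

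After the group means were taken out, the log2 CPM of Hk2 and Slc2a4 had a Pearson correlation of 0.81 over 18 libraries and 0.59 over the 16 without rat 8 and library 8828. For Pdk4 and Ucp3 it was 0.69 and 0.60, and for Hk2 and Ogdh 0.60 and 0.67. For Pdk4 and Angptl4 it was 0.01 over the 18 libraries and 0.65 over the 16. Ppargc1a and Ogdh, which were both called lower with age, had 0.02 over the 18 libraries and -0.41 over the 16. Angptl4 had -0.81 with Slc2a4, which became -0.51 without those libraries. These values describe libraries that share a scaling and a depth, among 21 pairs computed, and no p is attached. Over all genes tested, the identifiers whose log2 CPM most resembled that of Ppargc1a over the 18 libraries, group differences included, were ENSRNOG00000005964 (chr5:63781801-63821637, r = 0.825) and ENSRNOG00000034084 (chr4:85186644-85192834, r = 0.811), both in Rnor_6.0. They were taken as the highest correlations among 14646 genes.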

How the data were processed

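Gastrocnemius total RNA was depleted of ribosomal RNA and sequenced as strand-specific paired libraries of 150 bases. The authors trimmed reads with Cutadapt 1.2.1, aligned them to Rnor_6.0 with STAR 2.3.0e and counted them on annotation release 96 with featureCounts 1.6.4 without a strand option, as the file header and the submitters' processing notes state. The deposited values are these raw counts per gene and library. Totals of 17335401 to 27432767 limit precision by counting error only for low genes such as Angptl4. All columns of sample values were used, 3 of them with a group but no rat number.

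In R 4.3.3 with edgeR 4.0.16, genes were filtered by filterByExpr, libraries were scaled with TMM factors, all 18 entered 1 quasi-likelihood fit, and 3 contrasts were tested with Benjamini-Hochberg adjustment over 14646 genes. Calls used the thresholds of the study, 0.05 for the adjusted p and 1.5 for the fold. The standard error was taken as log2 fold change (absolute) over the root of F. Log2 CPM used a prior count of 2. The labels list 6 numbered rats in each group, which the column names match for young rats and aged rats fed AL, and for 3 of the 6 aged CR columns. The fits were tested on simulated data, and no result of that is given or relied on here.

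The genes and lists were chosen with earlier results of these data known. Every analysed member is named, and the 2 most similar identifiers are given for Ppargc1a alone. Names come from the identifier list. Neither pathway lists nor muscle or other cell type markers fixed by symbol were analysed, since the files do not pair symbols with identifiers, so the labelled tissue was not checked against markers. Promoters come from RefSeq tables of GRCr8, matched by symbol. Their coordinates are not those of Rnor_6.0. Alternatives were DESeq2 1.42.0, edgeR fits limited to the groups compared, different scalings, filters and thresholds, robust shrinkage, exact permutation tests of log2 CPM, leaving out mitochondrial genes, each library in turn, or rat 8 with library 8828. Leaving out the 3 aged CR libraries over 10% mitochondrial was added after seeing the data.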

Additional observations from a re-analysis of the deposited data

Results flagged for a closer look

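In 4 of the 21 sets of 6 libraries (7 genes in 3 groups), an end library was separated from its neighbour by a share of the group's whole range above Dixon's 95% critical value for 6 samples. Chance flags about 1 in 20 of independent sets, but these 21 share 18 libraries, so no number expected by chance is set beside the 4. Angptl4 in rat 8 (aged, AL) stood at 90.2 CPM with the next library at 12.4 CPM, a gap of 0.918 of the range. Angptl4 in library 8828 (aged, CR) stood at 47.7 CPM with the next at 20.2 CPM, a gap of 0.703. Slc2a4 in rat 8 was the low end, at 314 CPM against 659 CPM, a gap of 0.715. Pdk4 in library 8827 (aged, CR) was the high end, at 775 CPM against 498 CPM, a gap of 0.772. Of these 4, 3 lie in the libraries that stand apart on the first principal component. On log2 CPM, a scale added after seeing the data, the gaps were 0.708, 0.502, 0.796 and 0.711 in the same order, so that Angptl4 in library 8828 no longer passed the critical value, while Hk2 in rat 8, at 0.643, passed it.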

How the results depend on the processing

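Ogdh was called lower in aged than young rats fed AL under each alternative tried except an adjusted p of at most 0.01, and Ppargc1a except there and in edgeR on only those groups. The number of members called in that contrast was 1 (Ogdh) in edgeR on only the groups compared, 0 under an adjusted p limit of 0.01, and 2 to 3 over the fits that each omitted 1 library. In DESeq2 on only the groups compared it was 2 for aged CR against young rats, where that fit called 5.69% of all genes, and 1 for aged CR against aged AL, where it called 2.77%. Leaving out any single library gave 0 to 0 members called in either CR contrast. Hk2 lost its call in edgeR on only the groups compared (adjusted p = 0.0656), with upper-quartile factors (log2 -0.58), with library totals only (-0.49), without rat 8 and library 8828 (-0.53), and without rat 1 (adjusted p = 0.0598), rat 3 (0.0585), rat 8 (log2 -0.53) or rat 9 (adjusted p = 0.0531). Causes were not tested. Library totals alone moved the median of all genes to 0.18 in aged against young AL and to -0.19 in aged CR against aged AL, and relative to that median Hk2 was at -0.67.

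The Pdk4 difference between aged and young AL turned sign with library totals only (0.010) and without rat 8 and library 8828 (0.060). It also turned without rat 8 alone (0.060) and without rat 6 (0.047), and ranged from -0.21 to 0.060 as single libraries were left out. Relative to the median it stayed negative with library totals only (-0.17). Angptl4 between the aged groups turned positive without rat 8 and library 8828 (0.84), without the libraries over 10% mitochondrial (0.062) and as a difference of mean log2 CPM (0.53), and ranged from -0.50 to 1.26 as single libraries were left out. Of 693 alternative values of single members, 664 kept their direction and side of the threshold, 9 turned sign, 12 lost a call and 8 passed a threshold that the reported value did not. Of these 8, 3 are the DESeq2 calls above. The other 5 are on the unadjusted p of a two-sided exact permutation test of log2 CPM, which is not the same threshold: Pdk4, Ucp3 and Angptl4 in aged CR against young, and Ppargc1a and Pdk4 in aged CR against aged AL. DESeq2 on only the groups compared gave Angptl4 no p in aged against young AL and in aged CR against aged AL. These values are counted as not called among the 664.

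Counts of all genes called, on which the background shares rest, also moved. Over the fits omitting 1 library they ranged from 288 (without rat 9) to 678 (8828) in aged against young AL, from 185 (8826) to 578 (rat 8) in aged CR against young, and from 69 (8826) to 385 (rat 8) in aged CR against aged AL. Other single libraries that moved a count by over 1.5 times were rats 1, 3, 5 and 6 (329, 325, 299 and 305) in the first, rats 3 and 5 (188 and 192) in the second, and rats 7 and 10 and libraries 8827 and 8828 (128, 129, 103 and 361) in the third. From 497 in aged against young AL they went to 985 and 868 in DESeq2 (all libraries, only the groups compared), 258 in edgeR on only those groups, 330 with at least 10 counts in every library and 124 under the stricter adjusted p of 0.01. From 290 in aged CR against young they went to 705, 952, 441 and 107 (DESeq2 both ways, edgeR on those groups, adjusted p of at most 0.01), 455 without rat 8 and library 8828 and 46 without the libraries over 10% mitochondrial. From 202 in aged CR against aged AL they went to 443, 429, 130 and 44 in the same order, 129 without a filter, 477 and 4. No paired analysis was possible because the rat numbers run on from group to group and are shared by none. Depth limits Angptl4 most, at 17 counts in its lowest library.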
